A study of Rattus norvegicus with 6 samples.

Results

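The genes of bone formation described here were the osteoblast transcription factors Runx2 and Sp7 and 7 genes for enzymes and proteins of the bone matrix, Bglap, Alpl, Spp1, Ibsp, Sparc, Dmp1 and Phex. A probe was taken when its annotated symbol was one of these names. The rule uses no measured value, but the genes were chosen with earlier results of these data known. All 9 genes were on the array, on 13 of the 26481 probes tested, and they were 9 of the 12589 named genes. Runx2 and Phex had 3 probes each, and the other 7 genes had 1 probe each. Probes of a gene were averaged, so that 23549 rows, genes and unnamed probes together, were compared.

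Runx2 commits mesenchymal cells to the osteoblast lineage, and Sp7 (osterix) acts downstream of it. Mature osteoblasts make alkaline phosphatase (Alpl), which removes pyrophosphate, an inhibitor of mineral growth, and they lay down a matrix that holds osteocalcin (Bglap), osteonectin (Sparc), osteopontin (Spp1) and bone sialoprotein (Ibsp). Dmp1 and Phex are typical of osteocytes, the cells that osteoblasts become once buried in bone, and both restrain the phosphate-wasting hormone Fgf23. In a healing long bone an inflammatory stage comes first, and cartilage and new bone follow.

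RNA of Sprague-Dawley rats, from the right hind-limb, was hybridised on 2-colour oligonucleotide arrays. Rats aged 4 weeks received a Lieber and DeCarli liquid diet with ethanol, or were pair-fed the diet without it, for 4 weeks, and some were then given a closed mid-shaft fracture held by a steel pin. Tissue of the callus region, frozen at 3 days, represents the inflammatory stage. The 4 groups are called pair-fed fractured, pair-fed intact, alcohol-fed fractured and alcohol-fed intact, where intact means no fracture, and each had 3 numbered samples. The labels do not say whether the rats without fracture were also pinned, nor whether a numbered sample is 1 rat. Each of the 6 possible pairings of groups was hybridised with a dye swap, 12 arrays in all, and each pairing has 1 deposited log ratio per probe. Since every sample was used on 1 pairing only, a single log ratio has no replicate.

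A positive log ratio was read as more RNA in the group named first in the title of the pairing. This reading is an assumption, because no source used here names the numerator or the log base. Pair-fed fractured is the first group both against alcohol-fed fractured and against alcohol-fed intact, yet these columns had a Pearson correlation of -0.616 across 26481 probes, which are not independent replicates. The second of these columns also had -0.273 with pair-fed intact over alcohol-fed intact. It had 0.258 with pair-fed fractured over pair-fed intact and 0.234 with alcohol-fed fractured over alcohol-fed intact, and turning it would make both negative. The first had -0.216 with pair-fed fractured over pair-fed intact. The correlations thus do not single out 1 column. Direction is therefore not settled, and each fitted difference is also given with the sign of the column of pair-fed fractured over alcohol-fed intact turned, called the turned column. If every ratio ran the other way, all signs would turn. No fold is quoted. Ratios hold no levels, so it could not be checked whether osteoblast genes were present in these tissues, and less RNA per cell cannot be told apart from fewer cells of a type. Spreads differed between pairings, with a standard deviation over rows from 0.245 for pair-fed fractured over pair-fed intact to 0.558 for the same pairing on the alcohol diet.

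Promoter windows of 250 bases that end at the annotated start were read from the RefSeq table of build GRCr8, which holds 8 windows for 7 of the 9 genes, Runx2 having windows for a pair of starts. Sp7 and Phex have no entry. On both strands, ACCACA (the core letters of RUNX binding), GGGCGG (a GC box) and TATAAA (the TATA box) were searched. None of these motifs overlaps another by its letters in the windows shown. The windows of Bglap, Spp1 and Ibsp are printed because these genes had the widest ratios, or, for Ibsp, the closest partner, among the matrix genes. Capitals mark a match, and each window reads 5′ to 3′ on the strand of the gene. Bglap lies at chr2:176137319-176137568 on the minus strand, Spp1 at chr14:5619805-5620054 on the minus strand and Ibsp at chr14:5757243-5757492 on the minus strand.
Bglap: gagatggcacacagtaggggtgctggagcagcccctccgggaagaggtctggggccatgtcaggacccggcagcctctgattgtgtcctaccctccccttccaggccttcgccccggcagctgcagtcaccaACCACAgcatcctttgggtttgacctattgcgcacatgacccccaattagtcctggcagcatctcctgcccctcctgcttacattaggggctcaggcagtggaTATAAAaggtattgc
Spp1: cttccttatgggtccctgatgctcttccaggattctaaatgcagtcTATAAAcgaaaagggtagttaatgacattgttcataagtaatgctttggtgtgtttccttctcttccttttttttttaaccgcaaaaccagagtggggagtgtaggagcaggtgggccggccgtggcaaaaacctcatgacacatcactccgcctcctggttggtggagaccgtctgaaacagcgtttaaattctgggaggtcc
Ibsp: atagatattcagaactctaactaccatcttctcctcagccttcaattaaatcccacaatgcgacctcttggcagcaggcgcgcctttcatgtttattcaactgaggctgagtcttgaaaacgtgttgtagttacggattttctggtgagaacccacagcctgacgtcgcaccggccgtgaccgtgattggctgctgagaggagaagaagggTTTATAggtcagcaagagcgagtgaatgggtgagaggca
Bglap held ACCACA 118 bases and TATAAA 15 bases before its start. Ibsp held the TATA letters on the opposite strand, 39 bases before the start, and Spp1 held them 204 bases before it. ACCACA was found in 3 of the 8 windows (Bglap, the first Runx2 start and Sparc), against 14.5% of all 33469 windows. GGGCGG was found in 2 of 8 (Alpl and the second Runx2 start), against 30.5%, and TATAAA in 3 of 8, against 12.9%. A match to letters is not a site in use, and these counts are too few to set the members apart.

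The 6 pairings are taken in one order throughout. Runx2, averaged over its probes, had log ratios of -0.13 for pair-fed fractured over pair-fed intact and 0.20 for pair-fed fractured over alcohol-fed fractured. It had 0.17 for pair-fed fractured over alcohol-fed intact and 0.11 for pair-fed intact over alcohol-fed fractured. The last pairings gave -0.28 for pair-fed intact over alcohol-fed intact and -0.10 for alcohol-fed fractured over alcohol-fed intact. The mean hides disagreement, since the 3 Runx2 probes did not share a sign on any of the 6 pairings. On pair-fed intact over alcohol-fed intact they spanned 1.29 log units, from -0.97 for probe 3 to 0.32 for probe 2. Probe 1 stood highest at 0.55 on pair-fed fractured over alcohol-fed intact, where the others gave -0.03 and -0.01.

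Sp7 had log ratios of 0.25, -0.46, 0.28, -0.10, -0.34 and 0.07 on the same 6 pairings in the same order. The 0.28 is from the column whose sign was also turned. The only pairing of fracture with no fracture on the pair-fed diet read 0.25, where 20.1% of rows were as far from 0.

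**Figure D1:**
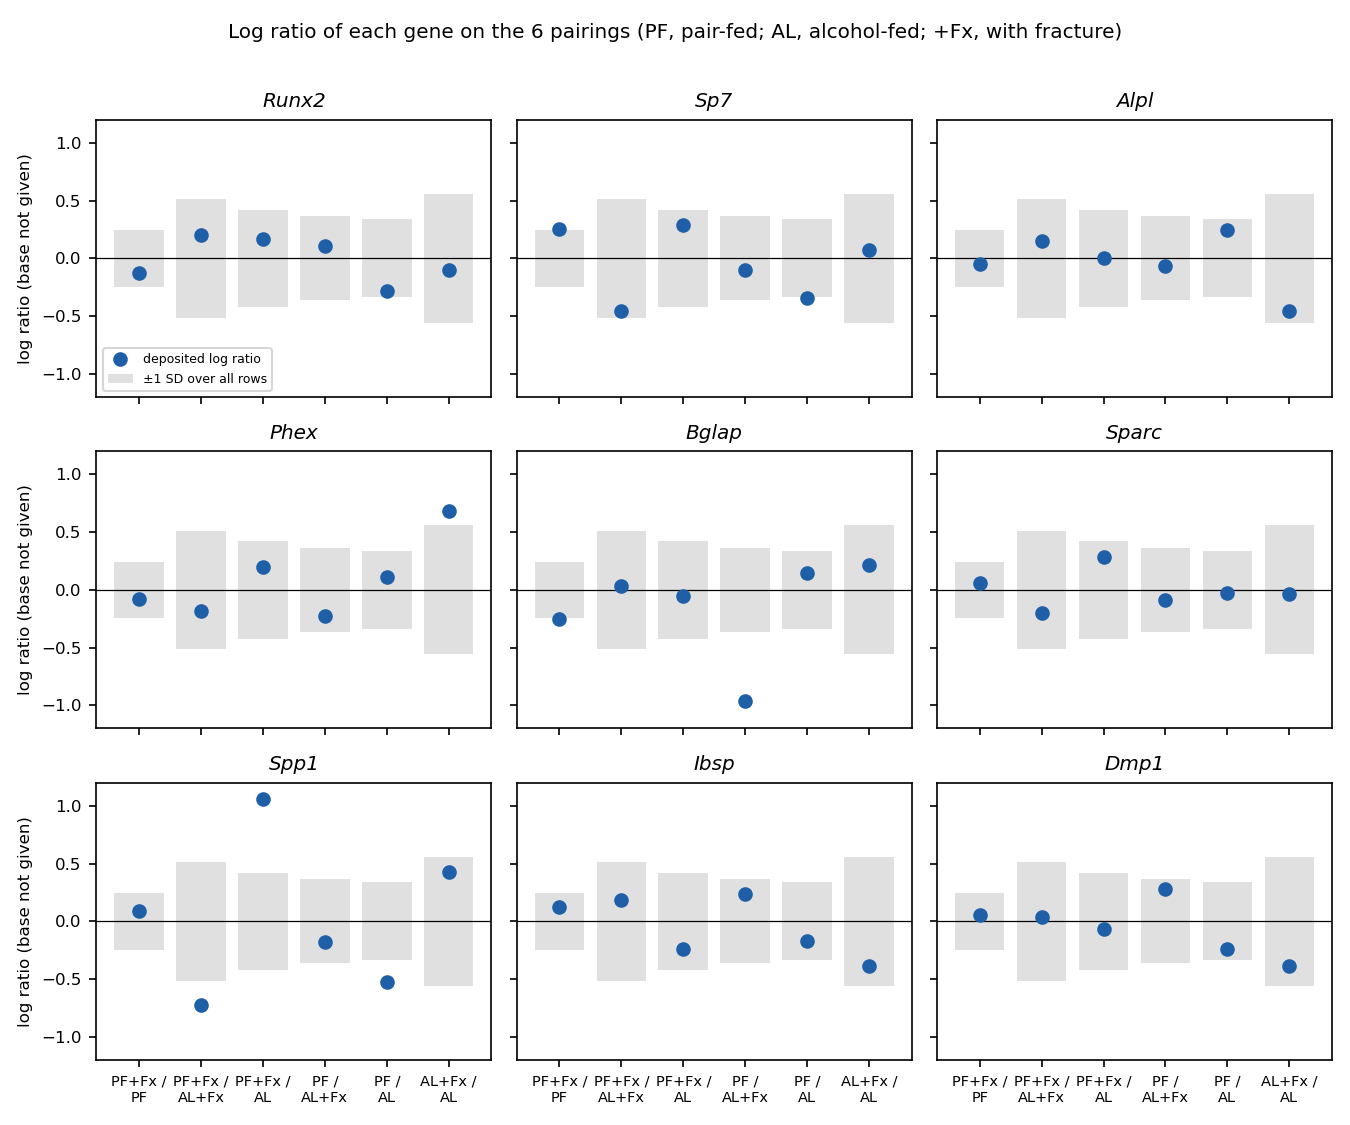
Deposited log ratio of each of the 9 genes (y axis, log units of unknown base) on the 6 pairings (x axis, first group over second group). Blue points are the value of a gene, the mean of 3 probes for Runx2 and Phex, and grey bars span 1 standard deviation over all rows either side of 0. Spp1 at 1.06, Bglap at -0.96 and Phex at 0.68 stand farthest out.

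Alpl kept close to 0 on most pairings. Its log ratios were -0.05, 0.15, 0.00, -0.07, 0.24 and -0.45 in the order above. The lowest value, for alcohol-fed fractured over alcohol-fed intact, was within the standard deviation of rows on that pairing.

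Phex, an endopeptidase of the osteocyte surface whose loss causes phosphate wasting and soft bone, had mean log ratios of -0.07, -0.18, 0.20, -0.22, 0.11 and 0.68. The last of these, for alcohol-fed fractured over alcohol-fed intact, rested on 1 of 3 probes. Probe 3 read 1.65 there, while probe 1 read 0.28 and probe 2 read 0.11. The 3 probes shared a sign on 3 of the 6 pairings. Probe 2 stood apart on another pairing, at 0.70 for pair-fed fractured over alcohol-fed intact, where probe 1 read -0.16 and probe 3 read 0.06.

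**Figure D2:**
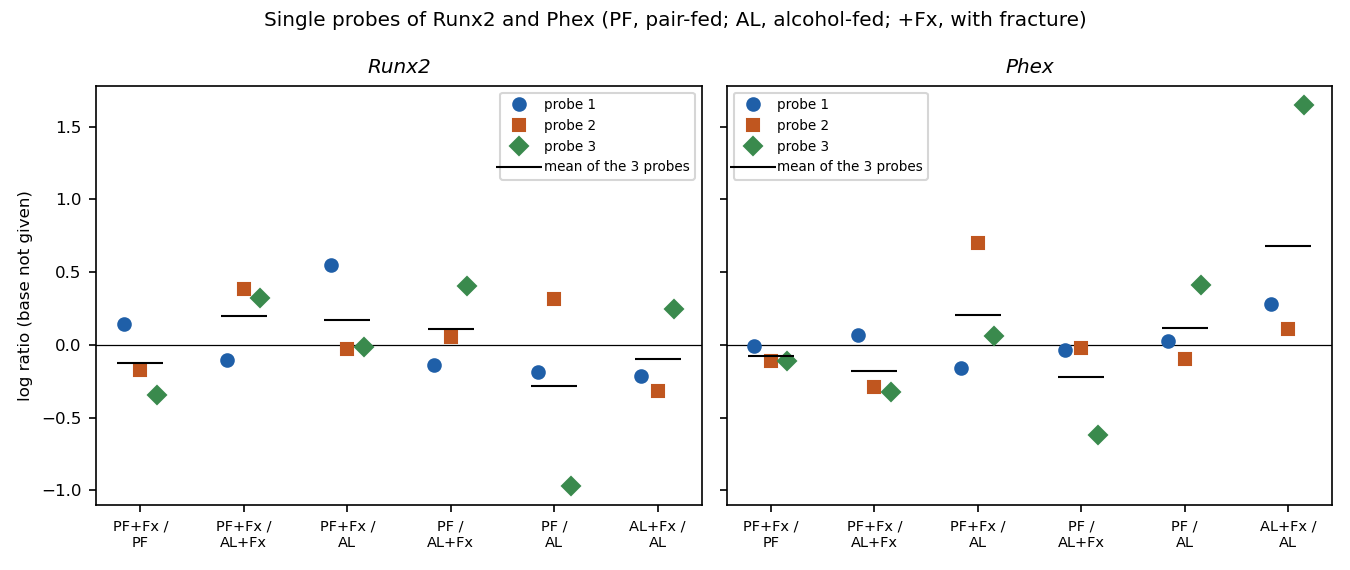
Log ratio of each single probe of Runx2 and Phex (y axis, log units of unknown base) on the 6 pairings (x axis), with black dashes at the mean of the 3 probes. The Runx2 probes lie on both sides of 0 on every pairing, and Phex probe 3 reaches 1.65 on the last pairing while the other probes stay at or below 0.28.

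Among the matrix proteins, Bglap encodes osteocalcin, the vitamin K-dependent protein of mature osteoblasts. It had log ratios of -0.26, 0.04, -0.05, -0.96, 0.15 and 0.21. One pairing held most of its spread, since pair-fed intact over alcohol-fed fractured read -0.96, a distance from 0 that 2.11% of rows reached. The paths through the other groups did not repeat it, and the group differences fitted below left a share of 0.582 of the summed squared Bglap ratios unexplained, where ratios with no group differences leave 0.5 on average.

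Sparc, a collagen-binding glycoprotein, was the flattest member. It had log ratios of 0.06, -0.20, 0.29, -0.09, -0.03 and -0.03, a root mean square of 0.151 that 89.0% of rows reached.

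Spp1, Ibsp and Dmp1 belong to one family of acidic, integrin-binding matrix proteins. In the RefSeq table they lie in a row on chromosome 14 with Mepe between Spp1 and Ibsp and Dspp after Dmp1. Mepe was on the array, and Dspp is not analysed here. Spp1 encodes osteopontin, which macrophages and osteoclasts make as well as osteoblasts. It had log ratios of 0.09, -0.73, 1.06, -0.18, -0.53 and 0.43. The value of 1.06, for pair-fed fractured over alcohol-fed intact, was the highest of any member on any pairing, and 2.97% of rows lay as far from 0. It is from the column whose sign was also turned, and turned it would be the lowest. Against alcohol-fed fractured, pair-fed fractured read -0.73, and 10.5% of rows lay as far.

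Ibsp, which nucleates mineral crystals, had log ratios of 0.12, 0.18, -0.24, 0.24, -0.17 and -0.39. Dmp1, an osteocyte protein that regulates mineralisation, had 0.05, 0.04, -0.07, 0.28, -0.24 and -0.38. These neighbours had the same sign on all 6 pairings, and their root mean square difference of 0.0999 was the smallest of the 36 pairs of members. That sign pattern was common, being held by 6% of all rows. Spp1 had the sign of Ibsp on 2 of 6 pairings and that of Dmp1 on 2 of 6. Mepe, with -0.12, -0.13, -0.01, 0.32, -0.09 and 0.14, followed neither.

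Other likenesses crossed the roles. Sp7 and Spp1 had the same sign on all 6 pairings, and Sparc had it on 5 of 6 with each. This pattern was the most common of the 64 possible, held by 6.23% of rows. Phex had the opposite sign to Ibsp and to Dmp1 on all 6 pairings. Values on pairings that share a group are not independent, so these are descriptions without a test.

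Most members varied less than the typical row. The root mean square over the 6 pairings was 0.597 for Spp1, 0.42 for Bglap and 0.317 for Phex, and these 3 exceeded the median of all rows, 0.286. The members' median was 0.239. Rows at or above the value of Spp1 made up 11.2%, those at or above Bglap 24.9% and those at or above Phex 42.3%.

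By the root mean square difference over the 6 pairings, the named genes most like Spp1 were Hes1 at 0.112, Hspa14 at 0.151 and Tmem214 at 0.159. The median over named genes, with provisional LOC, RGD and MGC symbols left out, was 0.666. The nearest of so many genes lie far below the median by selection alone. Those most like Bglap were Ptpre at 0.101, Snrnp200 at 0.149 and Myadm at 0.153, against 0.499. Those most like Phex were Lypd1 at 0.0668, Aig1 at 0.0694 and Zfp316 at 0.0695, against 0.411.

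A limma fit to all 6 pairings then gave each difference between groups with its standard error (SE). Each estimate combines the direct pairing with the paths through the other groups, and there were 3 residual degrees of freedom. A row was called at a Benjamini-Hochberg adjusted p under 0.05 over all 23549 rows. The p-values rest on the spread among these few samples, which may be partly technical.

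No member was called for fracture on the pair-fed diet, the comparison of fractured with unfractured tissue without alcohol (0 of 9, against 0% of all rows). At an unadjusted p under 0.05 the count was also 0 of 9, against 1.9% of rows, or 2.88% with the turned column. The widest difference was that of Spp1, 0.30 ± 0.34 (SE), with a 95% interval from -0.50 to 1.11, and it was -0.22 ± 0.23 with the turned column. Sp7 had 0.19 ± 0.20, and 0.05 ± 0.16 with the turned column. The other 7 lay between -0.03 for Alpl and 0.08 for Sparc, and Runx2 and Sparc changed sign with the turned column, to -0.01 and -0.06. The 8 skeletal muscle markers on the array had a median of 0.87 here, or 0.595 with the turned column, with none called, and their part in the members' values was not tested.

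For fracture on the alcohol diet 0 of 9 members were called, against 4.24% of rows, and with the turned column 0 of 9, against 0%. At an unadjusted p under 0.05 the count was 2 of 9, against 18.9% of rows. These were Phex and Ibsp, in opposite directions. The turned column gave 1 of 9, Phex, against 17.8%. Phex was 0.52 ± 0.15 (95% interval 0.16 to 0.88, limma adjusted p = 0.124), and 0.42 ± 0.17 with the turned column (adjusted p = 0.268). Ibsp was -0.40 ± 0.14 (95% interval -0.74 to -0.07, limma adjusted p = 0.185), and -0.28 ± 0.15 with the turned column (adjusted p = 0.366). Dmp1 lay beside Ibsp at -0.35 ± 0.15, and at -0.31 ± 0.15 with the turned column. Groups left 0.0509 of the squared Ibsp ratios, 0.101 of the Phex ratios and 0.164 of the Dmp1 ratios unexplained, and a low p favours a small share. For the other 6 of the 9 members the share was above 0.5, from 0.544 for Sp7 to 0.69 for Sparc. Pooled over the squared ratios of all rows it was 0.403. Rows with wide ratios weigh most in this pooled value, so it is not the share of a typical row. The turned column left 2 of 9, Bglap and Alpl, above 0.5, and the pooled share over all rows was 0.317.

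Spp1 had the widest estimate, 0.57 ± 0.34, and 0.04 ± 0.23 with the turned column. Bglap had 0.36 ± 0.25, and 0.39 ± 0.25 with the turned column. Alpl, Runx2, Sp7 and Sparc lay between -0.18 and 0.16, and Sparc became -0.02 with the turned column.

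When each probe was its own row, Phex probe 3 passed the threshold for fracture on the alcohol diet, at 1.18 ± 0.25 (limma adjusted p = 0.0481), where 4.62% of the 26481 probes were called. It no longer passed with the turned column (1.15 ± 0.25, adjusted p = 0.12). Without the pairing of alcohol-fed fractured with alcohol-fed intact it was 0.71 ± 0.24 (adjusted p = 0.374). Phex probe 1 had 0.10 ± 0.16 and probe 2 had 0.28 ± 0.22 in the same comparison, so the probes of this gene disagree.

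**Figure D3:**
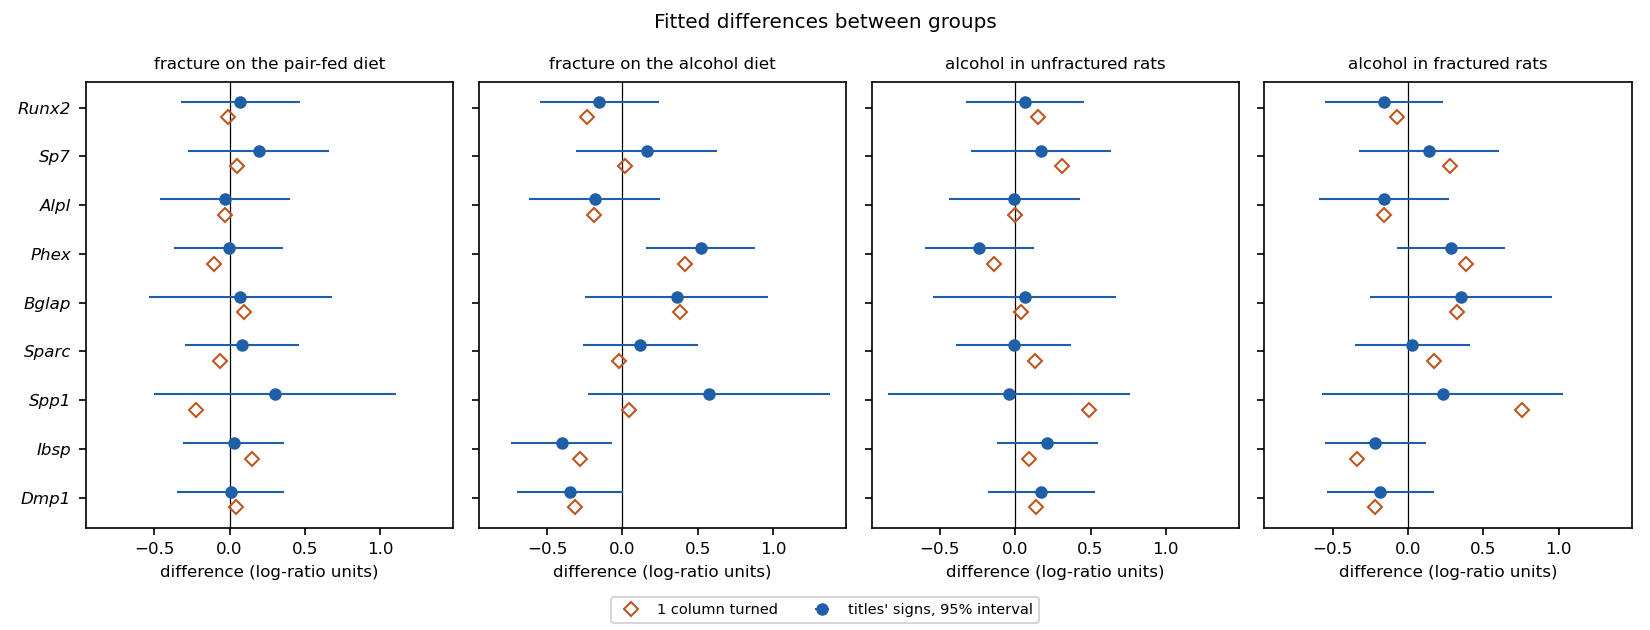
Fitted difference of each gene in 4 comparisons (x axis, log-ratio units, fractured minus unfractured or alcohol-fed minus pair-fed). Blue points with bars are estimates with 95% intervals, and orange diamonds are estimates with the turned column. Only Phex and Ibsp on the alcohol diet have an interval that leaves out 0, and Spp1 moves most between readings.

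Marker lists of other tissues moved in the same comparison. Of 8 skeletal muscle markers on the array, 3 were called higher and 1 lower in fractured rats on the alcohol diet, with a median of 1.78. Of 8 erythroid markers 4 were called lower, with a median of -0.94, and of 5 chondrocyte markers 1 was called lower, with a median of -0.41. Of 3 neutrophil markers 1 was called lower, with a median of -1.63. Of 6 macrophage markers, a list that includes Spp1, 2 were called higher, with a median of 0.46. No osteoclast (4) or adipocyte (3) marker was called, with medians of -0.59 and 0.08. With the turned column none of these markers was called. The medians were then 1.24 for muscle, -1.18 for erythroid, -0.34 for chondrocyte, -1.18 for neutrophil and 0.21 for macrophage markers. They were -0.38 for osteoclast and 0.03 for adipocyte markers. The median of all rows was 0.02 under both readings. No levels or values of 0 exist in ratios, and the part of these cell types in the members' differences was not tested.

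For alcohol in fractured rats, the comparison of diets within healing tissue, 0 of 9 members were called, against 0% of rows, and with the turned column 0 of 9, against 1.85%. At an unadjusted p under 0.05 the count was 0 of 9, against 11.5% of rows, and with the turned column 1 of 9, Spp1, against 20.3%. Bglap had 0.35 ± 0.25, Phex 0.28 ± 0.15, Spp1 0.23 ± 0.34 and Ibsp -0.22 ± 0.14, with limma adjusted p from 0.558 to 0.974 over the 9 members. With the turned column these 4 were 0.33 ± 0.25, 0.39 ± 0.17, 0.76 ± 0.23 and -0.34 ± 0.15. This Spp1 value of 0.76 was the largest of any member in the 5 comparisons under either reading, and its adjusted p was 0.138. No marker of another cell type was called here with the titles' signs. The medians were 1.35 for muscle, -0.91 for erythroid, -1.02 for neutrophil, -0.28 for chondrocyte and 0.23 for macrophage markers. When the column was turned, 1 muscle marker was called higher, and 3 erythroid markers and 1 chondrocyte marker were called lower. The medians were then 1.87, -0.665, -1.52, -0.35 and 0.39 in the same order. Osteoclast markers had a median of -0.685, and -0.92 with the turned column. Adipocyte markers had 0.24, and 0.07 with the turned column. None of either list was called. The part of these cell types in the members' values was not tested.

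For alcohol in unfractured rats 0 of 9 members were called, against 0% of rows, and 0 of 9 passed an unadjusted p under 0.05, against 3.48% of rows, or 6.72% with the turned column. Estimates ran from -0.24 ± 0.15 for Phex to 0.21 ± 0.14 for Ibsp, and were -0.14 ± 0.17 and 0.09 ± 0.15 with the turned column. Spp1 turned from -0.04 ± 0.34 to 0.49 ± 0.23. The muscle markers had a median of 0.61, or 0.99 with the turned column, with none called, and their part was not tested.

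The diet by fracture interaction asks whether the fracture difference itself differed between diets. No member was called (0 of 9, against 0% of rows), and 1 of 9 passed an unadjusted p under 0.05, against 10.6% of rows. That member was Phex, at 0.52 ± 0.21 (95% interval 0.01 to 1.04, limma adjusted p = 0.456). It rested on Phex probe 3, at 1.25 ± 0.35, while probe 1 had 0.12 ± 0.23 and probe 2 had 0.21 ± 0.32. Ibsp had -0.43 ± 0.20 and Dmp1 had -0.36 ± 0.21. The turned column leaves these estimates as they are, since it adds the same amount to both fracture differences, and it alters only their errors. With it 0 of 9 members passed an unadjusted p under 0.05, against 12% of rows, and Phex had an unadjusted limma p of 0.0648. Marker medians in this comparison were -1.58 for neutrophil, -1.17 for erythroid and 0.77 for muscle markers. They were -0.64 for osteoclast, -0.49 for chondrocyte and 0.32 for macrophage markers. None of these markers was called, and their part was not tested.

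The fit also places the 4 groups on one scale for each gene, with their mean at 0. Alcohol-fed fractured was the highest group for Sp7, Bglap, Spp1, Sparc and Phex and the lowest for Runx2, Alpl, Ibsp and Dmp1. The share of all rows with this group at an end was not counted, so this does not set the members apart. The widest spreads over rows, standard deviations of 0.558 and 0.513, were on pairings with this group. For Phex the positions were 0.27 for alcohol-fed fractured, -0.01 for both pair-fed groups and -0.25 for alcohol-fed intact, where a difference has an SE of 0.15. For Ibsp the order ran, with the titles' signs, from 0.20 for alcohol-fed intact through 0.02 and -0.01 for the pair-fed groups with and without fracture to -0.20 for alcohol-fed fractured. No neighbours in the order of any of the 9 genes differed at an unadjusted p under 0.05, the lowest being 0.109, for Phex. With the turned column the lowest was 0.0705, for Spp1, and the highest group became alcohol-fed intact for Sparc and Runx2 and pair-fed fractured, at 0.14, for Ibsp. The order was the same under both readings for Phex, Bglap, Alpl and Dmp1. The Phex positions come from the mean of probes that disagree.

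**Figure D4:**
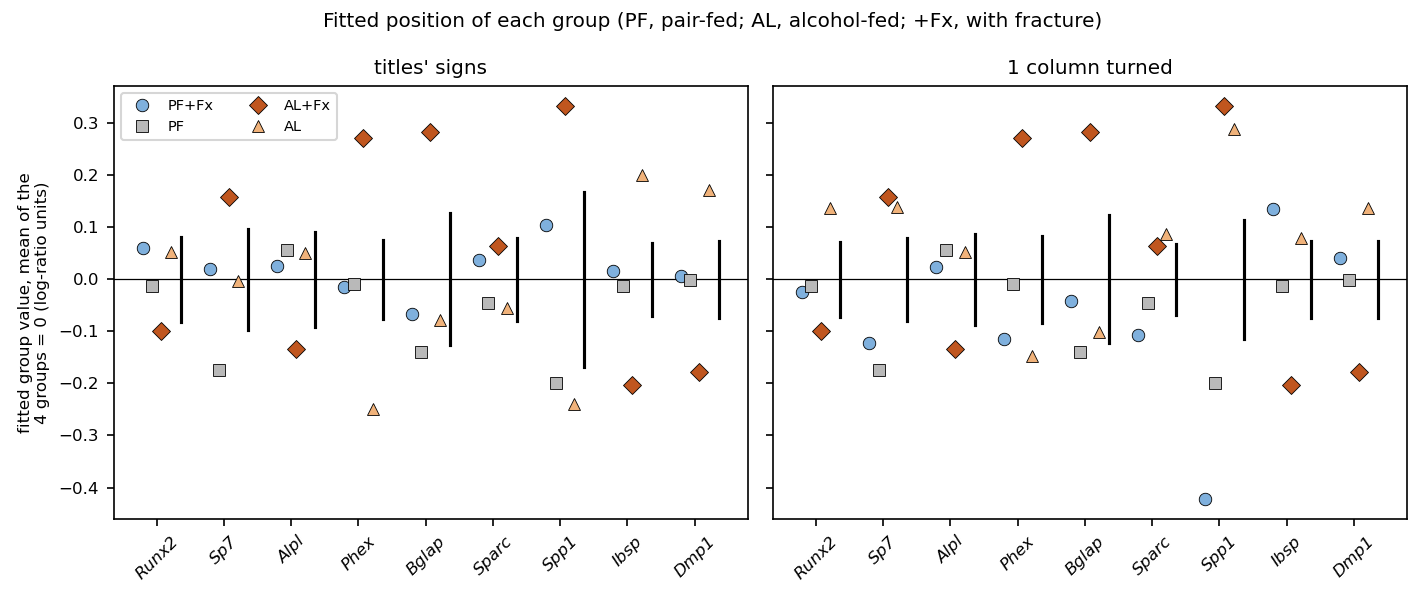
Fitted position of the 4 groups for each gene (y axis, log-ratio units around the mean of the groups), with the titles' signs on the left and the turned column on the right. The black bar beside each gene is as long as 1 SE of a difference between groups. The alcohol-fed fractured group, in dark orange, lies at an end of the order for every gene on the left, and the Spp1 groups are rearranged on the right. The share of all rows with that group at an end was not counted.

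Other genes of bone formation, listed by role, were compared in the same fit. Of 55 listed genes 41 were on the array, and 1 was called in the 5 comparisons, or 0 with the turned column. This was Col1a2, a chain of type I collagen, in fracture on the alcohol diet, where 4.24% of rows were called. Its log ratios were 0.05, 0.72, -0.55, 0.42, -0.02 and -0.95 in the order of pairings given above. The fitted difference was -0.90 ± 0.18 (limma adjusted p = 0.0466), and -0.63 ± 0.20 with the turned column (adjusted p = 0.192). Leaving out 1 pairing at a time gave adjusted p from 0.0448 to 0.355. The median of the 41 genes in this comparison was 0.01, against 0.02 for all rows. With the turned column it was 0.003, against 0.02.

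By role, 10 genes of type I collagen and its processing had a median of -0.06 for fracture on the alcohol diet, and 4 of 10 passed an unadjusted p under 0.05, against 18.9% of rows. With the turned column the median was 0.008 and 4 of 10 passed, against 17.8% of rows. Serpinh1, the collagen chaperone, had 1.35 ± 0.31 (limma adjusted p = 0.0685) and P4ha2, a collagen prolyl hydroxylase subunit, had 0.91 ± 0.30. With the turned column they had 0.93 ± 0.34 and 0.93 ± 0.28. For the 9 other transcription regulators the median was -0.20, or -0.09 with the turned column, and none passed an unadjusted p under 0.05 under either reading. The lowest was Atf4, a stress-responsive factor, at -0.40 ± 0.21, and at -0.16 ± 0.17 with the turned column.

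The 9 other non-collagenous matrix genes had a median of 0.18, or 0.003 with the turned column. With the titles' signs 1 gene, Ogn, a small leucine-rich proteoglycan, was under an unadjusted p of 0.05 (0.35 ± 0.14, limma adjusted p = 0.238, and 0.29 ± 0.14 with the turned column). With the turned column 2 genes, Ogn not among them, were under that p, against 17.8% of rows. The 6 genes of mineralisation and phosphate handling had a median of 0.15, but -0.07 with the turned column. The highest was Enpp1, which makes pyrophosphate, at 0.58 ± 0.44, and at 0.71 ± 0.39 with the turned column. The 7 osteocyte and osteoclast-coupling genes had a median of 0.01, or 0.14 with the turned column. Sost, the osteocyte inhibitor of Wnt signalling, had -0.34 ± 0.20, and -0.34 ± 0.19 with the turned column. Phospho1, which frees phosphate inside matrix vesicles, had 0.40 ± 0.48, and -0.14 ± 0.28 with the turned column. Its log ratios were -1.30 for pair-fed fractured over alcohol-fed fractured and 1.08 for pair-fed fractured over alcohol-fed intact. Spp1 also read opposite ways on those pairings, as did Dlx3 at -1.28 and 1.55. These columns had a correlation of -0.616 across all probes, so opposite readings there do not link these genes.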

How the data were processed

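Each deposited column holds the log ratios of a pairing, in a unit whose log base is unknown, and the values show that the authors' column was centred on its mean. No source used here says how the authors corrected background or normalized. No probe was filtered for dim signal, which the ratios do not show, and centring hides any shift common to all genes. Of 26503 probes, 22 control spots were left out. Probes with 1 symbol (15521) were averaged by gene after symbols were brought up to date (11824 current, 3638 updated, 59 kept), and 10960 unnamed probes stayed as rows.

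The fit was made with limma 3.58.1 (R 4.3.3), with +1 for the first and -1 for the second group of a pairing, moderated variances (3.66 prior degrees of freedom, prior standard deviation 0.258), two-sided tests and Benjamini-Hochberg adjustment over 23549 rows. It was tested on simulated data with differences placed in the alcohol-fed fractured group alone. Of differences of size 1, 15% were called for alcohol in fractured rats, 22% for fracture on the alcohol diet and 0% for the interaction. Of those of size 2, 86%, 87% and 45% were called in the same order. Most differences of size 1 were thus missed, and a member that was not called may still differ between groups. Alternatives turned a column, scaled the columns, centred on medians, dropped the moderation, left out each pairing, and kept probes apart. The number of samples limits the precision.

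The 9 members and all lists were chosen with earlier results of these data known. All members were named, and up to 3 genes per role list with the smallest p. The motif windows and the genes named beside them were described without a test.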

Additional observations from a re-analysis of the deposited data

How the results depend on the processing

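No paired analysis was possible because each pairing of groups has 1 deposited column, so no replicate number recurs within a comparison. Depth and signal over background are unknown, and 3 residual degrees of freedom limit every statement. The count of members called was 0 of 9 in each comparison and alternative, except that with probes apart 1 member, Phex through its probe 3, was called for fracture on the alcohol diet. In the other 4 comparisons no row at all was called with the titles' signs and moderated variances, so a count of 0 there says nothing about stability. That probe had 1.18 ± 0.25 with all pairings. In fits chosen after seeing the data it had 1.15 with the turned column (adjusted p = 0.12), 0.97 with scaled columns (adjusted p = 0.0646) and 1.18 without moderated variances (adjusted p = 0.27), and 0.71 to 1.39 with 1 pairing left out, where it passed the threshold only without pair-fed fractured over alcohol-fed fractured.

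Counts of all rows called moved more. For fracture on the alcohol diet 999 rows were called, against 0 with the turned column, 469 with scaled columns, 2 without moderated variances and 0 to 918 with 1 pairing left out. It was 0 without either pair-fed fractured over pair-fed intact, pair-fed fractured over alcohol-fed intact, or alcohol-fed fractured over alcohol-fed intact. For alcohol in fractured rats 0 rows were called, against 435 with the turned column and 4 without moderated variances, and for the interaction 0, against 2 without moderated variances. The cause was not tested.

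Of the 45 member values, 6 changed sign with the turned column, 3 with scaled columns, 1 with median centring and 0 without moderated variances. With the turned column, alcohol in unfractured rats read 0.49 for Spp1 and 0.13 for Sparc, fracture on the pair-fed diet read -0.012 for Runx2, -0.22 for Spp1 and -0.061 for Sparc, and fracture on the alcohol diet read -0.024 for Sparc. With scaled columns, alcohol in unfractured rats read 0.073 for Spp1 and 0.0066 for Sparc, and the interaction read -0.0033 for Sparc. With median centring, fracture on the pair-fed diet read 0.011 for Phex. With probes apart, Runx2 probe 2 read -0.13 for alcohol in unfractured rats and -0.091 for fracture on the pair-fed diet, Runx2 probe 1 read 0.045 for fracture on the alcohol diet, and Phex probe 2 read 0.076 for fracture on the pair-fed diet.

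With 1 pairing left out, 37 of 270 member values changed sign, and the ranges below belong to the results in which that happened. For alcohol in fractured rats these ranges were -0.18 to 0.27 for Sp7, -0.15 to 0.12 for Sparc and -0.27 to 0.58 for Spp1. For alcohol in unfractured rats these ranges were -0.14 to 0.23 for Alpl, -0.21 to 0.27 for Bglap, -0.15 to 0.16 for Runx2, -0.0029 to 0.30 for Sp7, -0.087 to 0.087 for Sparc and -0.60 to 0.32 for Spp1. For fracture on the pair-fed diet these ranges were -0.16 to 0.089 for Alpl, -0.20 to 0.40 for Bglap, -0.041 to 0.079 for Dmp1, -0.064 to 0.057 for Ibsp, -0.068 to 0.065 for Phex, -0.036 to 0.27 for Runx2, -0.015 to 0.17 for Sparc and -0.051 to 0.55 for Spp1. For fracture on the alcohol diet the range was -0.31 to 0.082 for Alpl. For the diet by fracture interaction these ranges were -0.39 to 0.11 for Alpl, -0.039 to 0.68 for Bglap, -0.35 to 0.14 for Sp7, -0.14 to 0.19 for Sparc and -0.23 to 0.83 for Spp1. The other 8 members kept their sign for fracture on the alcohol diet, and Ibsp moved least, from -0.42 to -0.37. Ranges were 0.093 to 0.55 for Bglap, 0.0017 to 0.28 for Sp7, 0.22 to 0.86 for Spp1 and 0.36 to 0.58 for Phex. They were -0.42 to -0.30 for Dmp1, -0.23 to -0.044 for Runx2 and 0.022 to 0.27 for Sparc. Bglap for alcohol in fractured rats ranged from 0.082 to 0.74.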
